A study of Mus musculus with 8 samples.

Results

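The genes described here encode the machinery that folds proteins and the machinery that degrades them: heat shock proteins and their J-protein and BAG cofactors, the TRiC/CCT chaperonin, prolyl isomerases of the cyclophilin and FKBP families, protein disulfide isomerases, and the subunits, activators and assembly factors of the proteasome. They were chosen by gene symbol alone, from array features annotated to a single gene, with the symbol patterns Hsp, Dnaj, Cct, Psm, Fkbp, Ppi, Pdia and Bag. The array held 65 such genes among 5822 named genes, on 78 features. Of the 65, 39 had a ratio on at least 3 arrays of each genotype and were tested, among 3505 genes and unnamed features tested in all.

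The study compared cultured cortical astrocytes of neonatal C57BL/6j mice, wild type (WT) or null for connexin43 (Cx43 KO), the gap junction protein that couples astrocytes to each other. Each of the 8 arrays, 4 per genotype, carried astrocyte RNA in channel 2 against a common reference in channel 1. That reference was pooled from adult C57BL/6j tissues of both sexes: brain, heart, aorta, lung, liver, kidney, spleen, stomach, and ovary or testicles. Both genotypes were cultured cells, so every comparison with the pool sets neonatal cultures against whole adult organs. The title of the array called Cx43 KO 3 here carries Cx43 without the word KO. Gja1, the gene for Cx43, was not analysed here, so the genotype labels were not checked against their target. Whether the arrays of a genotype stand for different cultures or animals is not stated; every p-value here therefore reflects the spread among these arrays and nothing wider.

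Molecular chaperones bind unfolded or partly folded proteins and release them through cycles of ATP hydrolysis. Hsp70 proteins are loaded by J proteins and discharged by nucleotide exchange factors such as the BAG proteins, small heat shock proteins hold unfolded clients without ATP, and the ring-shaped CCT complex folds actin and tubulin. Prolyl isomerases turn the peptide bond before proline, and proteins that cannot be folded are marked with ubiquitin and cut by the proteasome, a barrel (the 20S core) capped by a regulatory particle (19S) that recognises, unfolds and threads its substrates.

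Values are log2 ratios of astrocytes over the pool, centred on the median of each array. Thus 0 is the level of a typical feature of that array and 1 is 2-fold above it. Levels called above or below the pool are relative to this median. Base 2 is assumed, since the base is not given in the sources used here. The arrays gave a ratio for 3506 to 5514 of 9568 features, and the arrays' number limits the precision. Measured markers of cultured astrocytes, Aldoc, Fabp7 and Ttyh1, averaged 1.75 to 2.20 on 7 arrays and 0.46 on Cx43 KO 4. They were the 3 with 8 values among 7 listed astrocyte genes on the array. Fabp7 was far above the median throughout, between 3.06 and 4.61. Aldoc was near or below it on WT 1 (-0.08), WT 3 (0.07), Cx43 KO 2 (-0.19) and Cx43 KO 4 (-1.07), and highest on WT 4 (0.88). Sftpc, Sftpb, Gkn2 and Kap, 4 genes of the adult tissues in the pool, averaged between -3.56 and -3.02. Slc1a2, a transporter gene that marks astrocytes, had a ratio on 0 arrays. The mean of the microglia and macrophage markers was above the array median on every array, though single markers were not. On Cx43 KO 1, where this mean was 0.08, Tyrobp, Itgam and Ccl3 were at -0.56, -0.51 and -0.90. Cd68 and Lgmn were at 0.81 and 1.58 there. On Cx43 KO 2, Tyrobp was at -0.32 and Ccl3 at -0.65. The mean of the fibroblast, meningeal and mural markers was above the array median on every array except Cx43 KO 1 and Cx43 KO 2. The values of both lists are given below, beside Psme1 and Ppic. In such bulk samples, fewer cells of a type and less RNA per cell cannot be told apart.

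The proximal promoters of 2 members are shown because they hold the letters of the heat shock element, the sequence bound by heat shock factors. These 2 genes also lay below the array median on every array, and the windows lie outside the annotated span of the gene. Dnajc27 meets the first 2 of these conditions but its window overlaps the span of its gene, so its sequence is not printed. The element was searched on both strands of the 250 bases before each annotated start, in RefSeq's promoters for GRCm38.p6, which held 54 of the 65 members. The letters GAANNTTC, which read the same on both strands, stood in 8 of 64 promoters of members (12.5%). They stood in 6.69% of all 32851 promoters and in 4.88% of the promoters of everything tested. The 8 promoters belonged to 7 genes: Cct2, Dnaja4, Dnajb6, Dnajc27, Fkbp4, Hspb6 and Psmf1. Dnajb6 had overlapping windows that held the same match, so this match was counted more than once. A longer form of the element, in which a further GAA follows the same letters after 2 bases, stood in 0.466% of all promoters and, among the members, in that of Dnajb6. The match in Dnajb6 began 46 bases before the start and that in Fkbp4 began 151 bases before it. A match of letters is a description and not a site. The windows are chr5:29735648-29735897 on the plus strand for Dnajb6 and chr6:128438657-128438906 on the minus strand for Fkbp4, each written 5′ to 3′ along the gene with the match in capitals.
Dnajb6: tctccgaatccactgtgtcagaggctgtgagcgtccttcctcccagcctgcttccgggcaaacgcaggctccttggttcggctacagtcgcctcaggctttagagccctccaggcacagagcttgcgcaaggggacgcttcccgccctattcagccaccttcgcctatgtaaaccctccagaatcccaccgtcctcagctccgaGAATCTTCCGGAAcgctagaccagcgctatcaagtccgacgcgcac
Fkbp4: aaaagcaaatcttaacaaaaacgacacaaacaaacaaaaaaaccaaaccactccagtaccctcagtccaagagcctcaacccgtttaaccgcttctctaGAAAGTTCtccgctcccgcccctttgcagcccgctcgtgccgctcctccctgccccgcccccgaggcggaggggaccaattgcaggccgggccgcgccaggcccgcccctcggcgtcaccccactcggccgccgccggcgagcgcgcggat

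In their mean levels, the tested proteasome genes kept to a narrower range around the array median than the chaperones and isomerases did. The 14 tested proteasome genes had a median level of 0.23 and ran from -0.49 to 0.52, all 14 within 2-fold of the pool. Of the 25 tested chaperones and isomerases, 18 (72%) were within 2-fold, and their levels ran from -2.74 to 1.73 with a median of -0.35. Across everything tested, 78.7% of genes and features were within 2-fold of the pool. The levels of everything tested ran from -6.61 to 4.09, with a median of 0.02. Lying within 2-fold was not particular to the proteasome. Of the 33 tested genes that work with these machines, described further below, 31 (93.9%) were within 2-fold too. By limma's test against the pool at an adjusted p of 0.05, 28 of the 39 members passed, beside 68.4% of everything tested. Of these 11 were higher and 17 lower, or 28.2% and 43.6% of the members, beside 34.7% and 33.7% of everything tested. Among the proteasome genes 6 were higher, 3 lower and 5 did not pass, and among the chaperones and isomerases 5 were higher, 14 lower and 6 did not pass. The split by direction depends on the centring: without it, 18 members were higher and 14 lower, and the median over everything tested lay at 0.23.

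**Figure D1:**
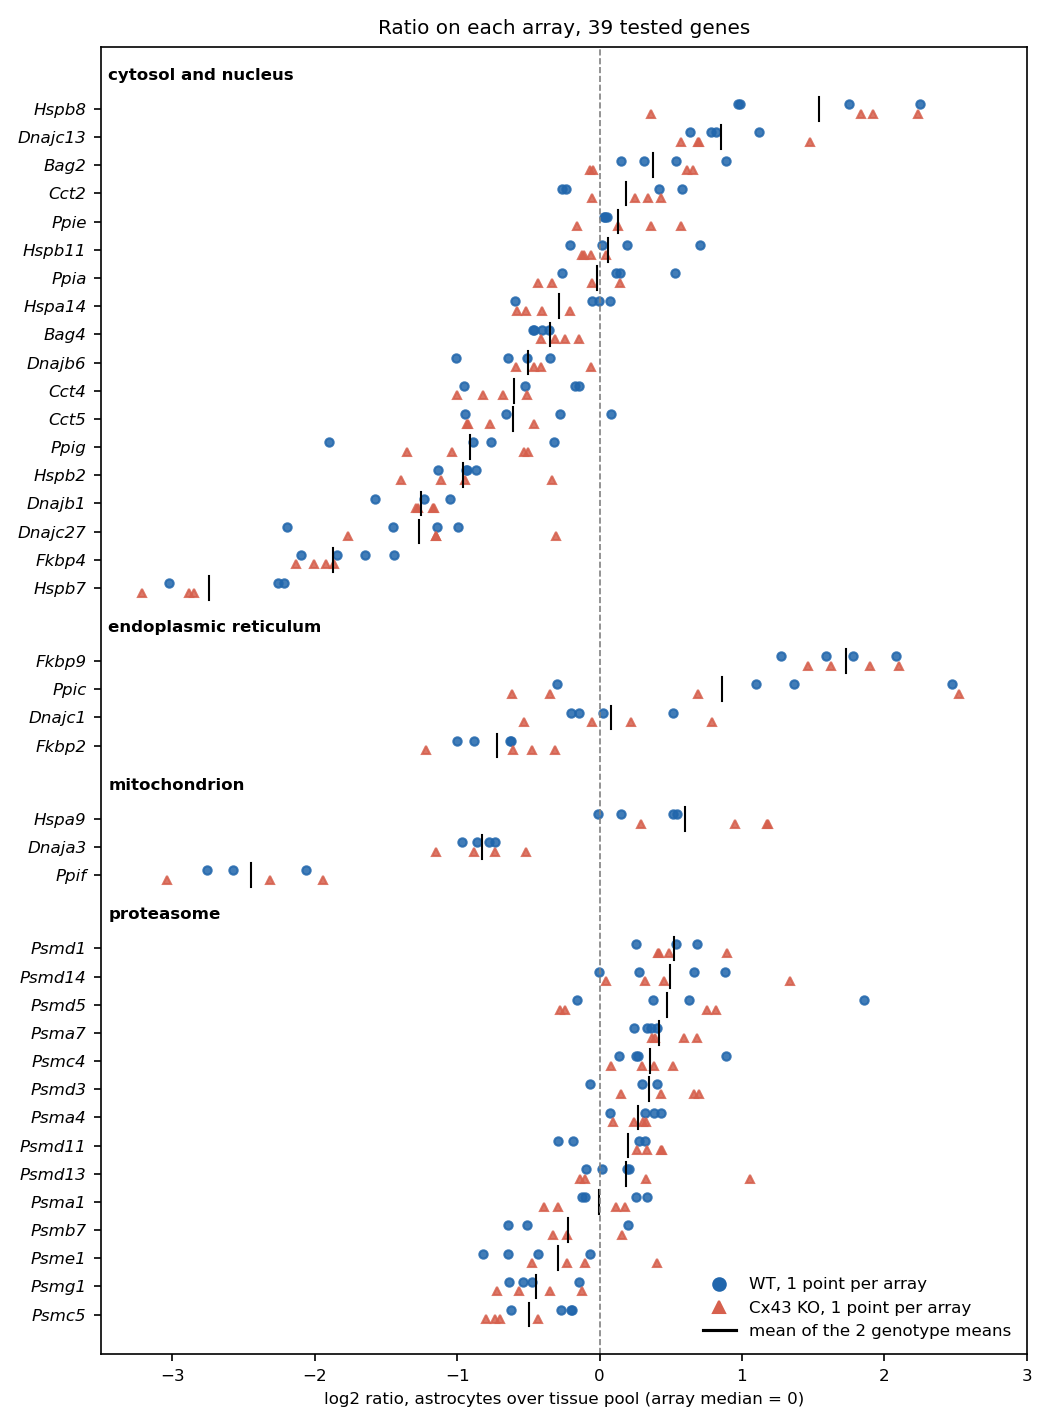
Centred log2 ratio of astrocytes over the adult tissue pool for each tested member, grouped by compartment; circles are the 4 WT arrays, triangles the 4 Cx43 KO arrays, the black bar is the mean of both genotype means, and the dashed line is the array median. Proteasome genes lie between -0.49 and 0.52 in their means, while the chaperones and isomerases reach from -2.74 (Hspb7) to 1.73 (Fkbp9).

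Within the 20S core, Psma7, an alpha-ring subunit, measured 0.40, 0.24, 0.36 and 0.33 on WT arrays 1 to 4 and 0.59, 0.39, 0.37 and 0.69 on Cx43 KO arrays 1 to 4. It was above the array median on every array, with a mean level of 0.42 (SE 0.08, limma adjusted p = 0.000695). Psma4, another alpha subunit, had a mean level of 0.27 (adjusted p = 0.0106, lost without lot batch 1), and Psma1, of the same ring, was at the median of the arrays (adjusted p = 0.98). The beta-ring subunit Psmb7, which carries the trypsin-like activity, had a mean level of -0.22 that did not pass (adjusted p = 0.18).

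In the 19S particle, all 5 non-ATPase subunits had positive mean levels and 3 passed the test: Psmd1, the large scaffold of the base, at 0.52 (adjusted p = 0.00131), Psmd3 of the lid at 0.35 (adjusted p = 0.0155), and Psmd14, the deubiquitinase of the lid, at 0.50 (adjusted p = 0.0122). Psmd14 was named after its values were seen. The lid subunits Psmd11 at 0.20 and Psmd13 at 0.18 did not pass; Psmd11 was negative on WT 1 and WT 2, and Psmd13 on WT 3, Cx43 KO 1 and Cx43 KO 2. The call of Psmd14 was lost without lot batch 1 and that of Psmd3 with the lot batch as a block. The 2 tested ATPases of the base ring, whose proteins sit side by side in 1 complex, fell on opposite sides: Psmc4 had a level of 0.35 (adjusted p = 0.00991) and Psmc5 of -0.49 (adjusted p = 0.00048). Ratios on these arrays are relative to the pool, so they do not order the subunits by abundance.

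Of the assembly and activator genes, Psmg1, a chaperone of the alpha ring, was below the pool at -0.44 (adjusted p = 0.0018), and so was Psme1, a subunit of the interferon-inducible PA28 activator, at -0.30 (adjusted p = 0.0443), a call lost under 11 of the 20 alternatives. Psmd5, a chaperone of the 19S base, had a level of 0.47 that did not pass (adjusted p = 0.0696) and the widest spread of the proteasome genes, from -0.28 to 1.86.

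Small heat shock proteins showed the widest range of any subfamily. Hspb8, which works with a BAG protein to send clients to autophagy, was 2.91-fold above the pool (level 1.54, SE 0.21, limma adjusted p = 8.67e-05). Hspb7, known for its expression in heart and muscle, was 6.68-fold below it (level -2.74, SE 0.13, adjusted p = 4.81e-07), with -3.02, -2.26 and -2.22 on WT arrays 1, 2 and 4 and -3.21, -2.85 and -2.88 on Cx43 KO arrays 1, 3 and 4. It was far below the median wherever it had a ratio. Hspb2, which is also best known from heart and skeletal muscle, was at -0.96 (adjusted p = 2.95e-05), and Hspb11, an intraflagellar transport protein despite its name, was at 0.06 (adjusted p = 0.637).

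Most cytosolic and nuclear members were below the pool: of the 18 tested in that compartment, the small heat shock proteins included, 11 were lower, 3 higher and 4 did not pass. That is 61.1% lower and 16.7% higher, beside 33.7% and 34.7% of everything tested. The lower calls of Bag4 and Hspa14 were lost without centring. The compartment's median level, -0.43, rose to as much as -0.13 among the alternatives. The Hsp90-associated isomerase Fkbp4, a cofactor of steroid receptors, measured -1.44, -1.65, -2.10 and -1.85 in WT and -1.87, -2.01, -1.92 and -2.13 in Cx43 KO. Its 8 values lay within a narrow band, 3.65-fold below the pool in the mean (level -1.87, SE 0.09, adjusted p = 6.39e-08). Dnajb1, the J protein most closely tied to the heat shock response, was at -1.26 (adjusted p = 2.48e-06), Dnajc27, a small GTPase with a J domain, at -1.27 (adjusted p = 6.83e-05), and Dnajb6, which holds back aggregation, at -0.50 (adjusted p = 0.00101).

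The chaperonin subunits Cct4 at -0.60 (adjusted p = 0.000607) and Cct5 at -0.61 (adjusted p = 0.000938) were both below the pool, while Cct2, of the same ring, was at 0.18 and did not pass (adjusted p = 0.18). Hspa14, a ribosome-associated member of the Hsp70 family and the only cytosolic Hsp70 tested, was at -0.28 (adjusted p = 0.0222), a call lost under 6 of the 20 alternatives, among them without Cx43 KO 3 and without WT 4. The Hsp70 cofactors parted, Bag2 at 0.38 (adjusted p = 0.0165, lost without lot batch 1 or 2) and Bag4 at -0.35 (adjusted p = 0.00179, lost without centring). The third cytosolic gene above the pool besides Hspb8 and Bag2 was Dnajc13, which acts on the clathrin coat at early endosomes, at 0.85 (1.80-fold, adjusted p = 6.93e-05).

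Prolyl isomerases were divided: 1 of 8 tested was higher than the pool, 4 were lower and 3 did not pass. That is 12.5% higher and 50% lower, beside 34.7% and 33.7% of everything tested. The higher one was Fkbp9, an isomerase of the endoplasmic reticulum (ER) lumen, with 2.08, 1.28, 1.59 and 1.78 in WT and 1.63, 1.90, 1.46 and 2.10 in Cx43 KO. Every array was at least 1.28 above its median, and the mean level of 1.73 (SE 0.11, adjusted p = 3.7e-07), or 3.31-fold, was the furthest above the pool of the 39 members. Fkbp2, also of the ER, was below at -0.72 (adjusted p = 0.000184). Ppic, a cyclophilin of the secretory pathway, had a level of 0.86 that missed the threshold (adjusted p = 0.0507) and passed it under 11 of the 20 alternatives. Among the cyclophilins of the cytosol and nucleus, Ppia, the abundant target of cyclosporin, was at -0.02 (adjusted p = 0.884), the splicing-associated Ppie at 0.13 (adjusted p = 0.281) and Ppig at -0.91 (adjusted p = 0.000615). The level of Ppig, counted among the 4 lower, is the average of 2 features that disagree, with means of -1.82 and 0.27.

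The mitochondrial members also lay on both sides. Hspa9 (mortalin), the Hsp70 of the matrix that pulls imported proteins inward, was above the pool at 0.60 (SE 0.12, adjusted p = 0.00109). Its J-protein partner Dnaja3 was at -0.83 (adjusted p = 1.49e-05). Ppif (cyclophilin D), the matrix isomerase that regulates the permeability transition pore, was 5.46-fold below the pool, at -2.06, -2.58 and -2.76 on WT arrays 1, 2 and 4 and -2.31, -3.04 and -1.94 on Cx43 KO arrays 1, 3 and 4 (level -2.45, adjusted p = 2.49e-06).

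The remaining 26 members were not tested. On 0 arrays was there a ratio for 18 of them (27.7% of the 65, beside 29.4% of all named genes): Dnajb11, Dnajc3, Fkbp7, Pdia2, Pdia4 and Ppib of the ER, Fkbp3, Hspa4, Hspa12a, Hspa12b and Hspb6 of the cytosol and nucleus, mitochondrial Dnajc15, the proteasome genes Psma5, Psmb3, Psme3, Psme4 and Psmf1, and Psme3ip1, which matched by symbol and is not a proteasome subunit. Pdia2 and Pdia4, the protein disulfide isomerases among the members, could therefore not be compared. The other 8 had ratios on 3 to 6 arrays, and all 8 lacked one on WT 2 and WT 3. The highest of these was Dnajb12, an ER-membrane J protein, at 2.47 and 3.23 on WT 1 and WT 4 and 3.63 and 4.04 on Cx43 KO 3 and Cx43 KO 4. These 4 values lie above the mean level of every tested member. Dnaja4 was the lowest, between -2.29 and -0.86 on 5 arrays, and Cct3, Cct8, Dnajc11, Dnajc30, Psmg2 and Psmg3 lay between -0.83 and 0.62.

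Between genotypes, 0 of the 39 members passed limma's test at an adjusted p of 0.05, and 0 of the 3505 genes and features did (0%). Before adjustment, 1 member (2.56%) had a p under 0.05, with Cx43 KO higher, beside 7.5% of everything tested in either direction and 3.85% in that one. In 0 members did the 4 arrays of 1 genotype lie wholly apart from those of the other, which happened for 5.22% of everything tested. Cx43 KO was higher in 25 members and lower in 14 (64.1% higher, beside 52.6% of everything tested), with a median difference of 0.06 beside 0.02; with quantile or scale normalization 21 were higher. Leaving out 1 array or 1 lot batch moved this count: 16 of 36 were higher without Cx43 KO 4, 16 of 35 without WT 3, 13 of 32 without lot batch 3 and 14 of 32 without lot batch 4. Over the alternatives the median ran from -0.058 (without lot batch 4) to 0.14 (without lot batch 1). The differences, Cx43 KO minus WT, ran from -0.60 to 0.60 with a median SE of 0.22. For 33 of the 39 members (84.6%) the 95% interval of the difference lay within 2-fold in both directions, beside 79.8% of everything tested. The median difference was 0.07 for the proteasome, 0.02 for the cytosol and nucleus (-0.055 with quantile normalization), 0.07 for the ER (4 genes; -0.051 and -0.075 with quantile and scale normalization) and 0.04 for mitochondria (3 genes).

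**Figure D2:**
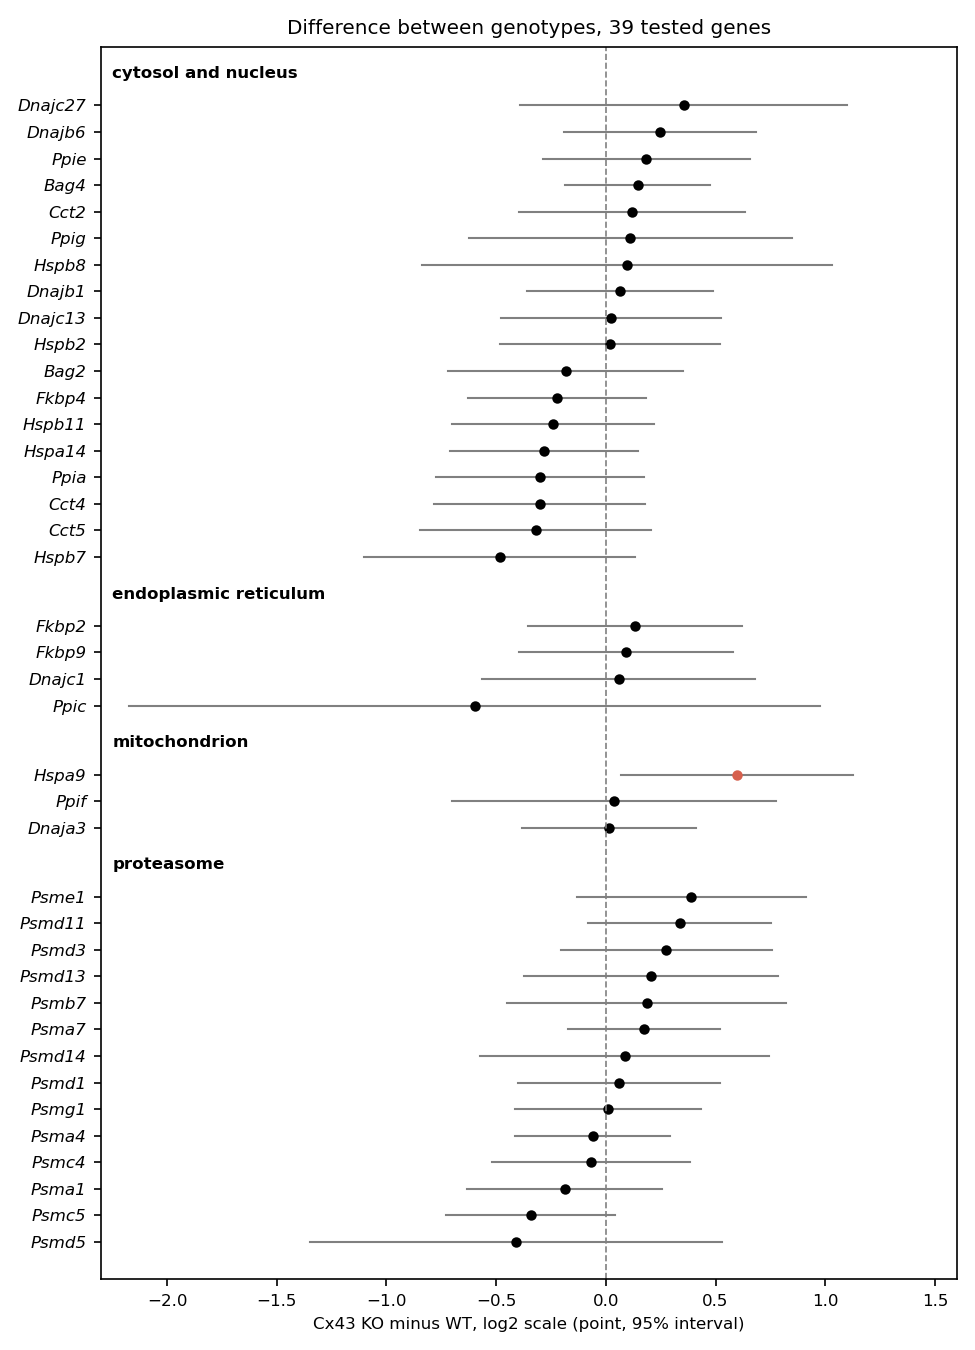
Difference of Cx43 KO minus WT in log2 units for each tested member, with its 95% interval from limma, grouped by compartment; the red point is Hspa9, the 1 member with an unadjusted p under 0.05. Differences run from -0.60 (Ppic) to 0.60 (Hspa9), and 33 of 39 intervals stay within 2-fold.

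Hspa9 showed the difference with the smallest p of any member. It measured 0.15, 0.55, -0.01 and 0.52 in WT and 1.19, 0.95, 0.29 and 1.17 in Cx43 KO. Cx43 KO arrays 1, 2 and 4 exceeded every WT array, and Cx43 KO 3 fell among the WT values. The means were 0.30 ± 0.28 (SD, n = 4) and 0.90 ± 0.42 (SD, n = 4). The difference of 0.60 (SE 0.24, 95% interval 0.07 to 1.13), or 1.51-fold, had an unadjusted limma p of 0.030 and an adjusted p of 0.655. The unadjusted p was not under 0.05 with scale normalization or without lot batch 1, 2 or 4. Within lot batches 1 to 4, each of which held 1 array of each genotype, Cx43 KO was higher by 1.03, 0.40, 0.30 and 0.65. The other mitochondrial members differed by 0.01 (Dnaja3, adjusted p = 0.994) and 0.04 (Ppif, adjusted p = 0.990).

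In the 19S particle, the ATPase Psmc5 measured -0.20, -0.27, -0.19 and -0.62 in WT and -0.79, -0.70, -0.73 and -0.43 in Cx43 KO. Lot batches 1 to 3 had the lower value in Cx43 KO, by -0.59, -0.43 and -0.54, and lot batch 4 the higher one, by 0.19. The difference was -0.34 (SE 0.17, limma adjusted p = 0.696). The lid subunit Psmd11 measured -0.19, -0.29, 0.32 and 0.28 in WT and 0.33, 0.44, 0.26 and 0.43 in Cx43 KO, a difference of 0.34 (SE 0.19, adjusted p = 0.724). WT arrays were spread over both sides of the median, and Cx43 KO arrays kept within a narrow range above it.

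All 5 non-ATPase subunits of the 19S particle had a positive difference, from 0.06 to 0.34, without passing the test; with quantile and scale normalization Psmd1 turned to -0.0236 and -0.0254 and Psmd14 to -0.0264 and -0.0193. Beside Psmd11 these were Psmd3 (0.27, adjusted p = 0.792), Psmd13 (0.21, adjusted p = 0.870), Psmd14 (0.09) and Psmd1 (0.06). The value for Psmd13 turned to -0.051 without Cx43 KO 3, where it measured 1.06, and that for Psmd14 to -0.18 without Cx43 KO 4, where it measured 1.34. Both ATPases had a negative one, Psmc4 at -0.07 (adjusted p = 0.964). The 20S subunits lay on both sides of 0: the differences were 0.17 for Psma7, -0.06 for Psma4, -0.19 for Psma1 and 0.19 for Psmb7, with adjusted p from 0.821 to 0.955. Of the assembly factors, Psmg1 differed by 0.01, and Psmd5 by -0.41 (SE 0.42, adjusted p = 0.836), which became 0.16 without lot batch 4, where WT measured 1.86 and Cx43 KO -0.28.

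In the cytosol, Ppia measured 0.53, 0.15, 0.11 and -0.27 in WT and -0.43, -0.34, 0.15 and -0.05 in Cx43 KO. The genotypes overlapped, and the difference of -0.30 (SE 0.21, adjusted p = 0.778) shrank to -0.08 without lot batch 1. The chaperonin subunit Cct4 measured -0.17, -0.14, -0.53 and -0.95 in WT and -0.68, -0.51, -1.0 and -0.81 in Cx43 KO, a difference of -0.30 (SE 0.22, adjusted p = 0.778). Cct5 differed by -0.32 (SE 0.24, adjusted p = 0.778; -0.14 without WT 1 and -0.0908 without lot batch 1), from 0.08, -0.28, -0.66 and -0.95 in WT and -0.93, -0.92, -0.77 and -0.46 in Cx43 KO. Both overlapped between genotypes, and Cct2 differed the other way, by 0.12 (adjusted p = 0.935). Hspa14 differed by -0.28 (SE 0.19, adjusted p = 0.776), Fkbp4 by -0.22 (adjusted p = 0.803) and Ppie by 0.18 (adjusted p = 0.859).

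The 6 tested J proteins all had a positive difference, with a median of 0.06 and 0 past the test, although Dnajc13 turned to -0.14 with quantile and -0.12 with scale normalization: Dnajc27 (0.35, adjusted p = 0.826), Dnajb6 (0.25, adjusted p = 0.798), Dnajb1 (0.06), Dnajc1 of the ER (0.06), Dnajc13 (0.02) and Dnaja3 (0.01). The value for Dnajc27 rested on lot batch 1, where WT measured -2.19 and Cx43 KO -0.31, and was -0.16 without it. Dnaja3 and Dnajc1 each changed sign under 6 of the 20 alternatives, and Dnajb1 under 1 of 13. Of the J proteins, only Dnajb6 kept its sign throughout. Across everything tested, 52.6% of the differences were positive. The BAG cofactors differed by 0.14 (Bag4, adjusted p = 0.836) and -0.18 (Bag2, adjusted p = 0.876). Among small heat shock proteins, Hspb7 differed by -0.48 (SE 0.27, adjusted p = 0.738) over 3 arrays of each genotype, a value that became -0.04 with the arrays set to 1 spread and -0.15 with quantile normalization. Hspb11 differed by -0.24 (adjusted p = 0.805) and Hspb2 by 0.02 (adjusted p = 0.993).

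Of the 32 members with 8 values, 10 were highest on Cx43 KO 4 (31.2%, beside 20.2% of everything tested with 8 values). Another 10 were highest on WT 1, beside 432 of the 2596 genes and features tested with 8 values. These arrays held the 2 highest values of 8 members (25.0%, beside 10.2%): Dnajc1, Dnajc13, Fkbp9, Ppic, Psmc4, Psmd14, Psme1 and Psmg1. Ppic, Psme1 and Hspb8, chosen after their values were seen, are set beside marker genes here. Ppic measured 2.48, -0.30, 1.10 and 1.37 in WT and -0.35, -0.62, 0.69 and 2.53 in Cx43 KO, means of 1.16 ± 1.14 and 0.56 ± 1.43 (SD, n = 4). Its difference of -0.60 (SE 0.71, adjusted p = 0.864) was -1.25 without Cx43 KO 4 and 0.14 without lot batch 1. On the same arrays, the mean of the fibroblast and mural markers Col1a1, Col3a1, Fn1 and Igf2 was 1.86, 0.79, 1.12 and 1.47 in WT and -0.71, -0.31, 1.10 and 2.89 in Cx43 KO. Of these 4, Col1a1 and Fn1 were above the array median on every array. Col3a1 and Igf2 lay on both sides of it, from -3.98 to 3.67 and from -0.88 to 1.12. Lum, the fifth marker on the array, had ratios on 6 arrays and was above 0 on WT 1 alone (1.15), with -0.25 on Cx43 KO 4 and -3.49 on Cx43 KO 3. On WT 2, Ppic was at -0.30 while the marker mean was at 0.79. Both Ppic and this mean were highest in Cx43 KO 4 and WT 1 and below 0 in Cx43 KO 1 and Cx43 KO 2. The markers did not follow it singly: on Cx43 KO 1 and Cx43 KO 2, Col1a1 was at 1.07 and 0.72 and Fn1 at 0.96 and 0.67, while Col3a1 was at -3.98 and -1.94, and Igf2 was at -0.52 on WT 1. The part of these markers in the result was not tested.

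Psme1 measured -0.07, -0.43, -0.64 and -0.82 in WT and -0.23, -0.10, -0.48 and 0.41 in Cx43 KO, a difference of 0.39 (SE 0.23, adjusted p = 0.753) that was 0.22 without Cx43 KO 4 and 0.11 without lot batch 4. The mean of the interferon-response genes Irf1, Irf9 and Tap1, 3 of the 6 on the array, was 0.21, 0.03, -0.15 and -0.12 in WT and -0.04, 0.20, 0.12 and 1.29 in Cx43 KO, and B2m was on 0 arrays. The mean of 5 microglia and macrophage markers (Tyrobp, Cd68, Itgam, Ccl3 and Lgmn, of 12 on the array, with Fcer1g, Ctss, Ptprc, Ccl4 and Mpeg1 on 0 arrays) ran from 0.71 to 1.31 in WT and was 0.08, 0.26, 1.03 and 2.20 in Cx43 KO. Cx43 KO 4 was the highest array for Psme1 and for the mean of each list. The microglia and macrophage markers did not follow this singly. Cd68, Itgam and Ccl3 were highest on Cx43 KO 4, but Tyrobp was highest on WT 2 (1.29, beside 1.06 on Cx43 KO 4). Lgmn was highest on Cx43 KO 3 (1.59, beside 0.68 on Cx43 KO 4). The part of both lists in the result was not tested.

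Hspb8 measured 0.99, 1.75, 0.98 and 2.25 in WT and 2.23, 1.92, 1.84 and 0.36 in Cx43 KO. Cx43 KO 4 was the lowest array, as it was for the astrocyte markers, which averaged 0.46 there. The difference was 0.10 (SE 0.42, adjusted p = 0.979) over all arrays and 0.51 without Cx43 KO 4. The part of the markers was not tested. Cx43 KO 4 also had the lowest of limma's array weights, which count deviating arrays less (0.30, beside 0.69 to 1.90). Over everything tested, 7.5% had an unadjusted limma p under 0.05. This share was 12.2% without Cx43 KO 4 and 13.4% with array weights. Fkbp9, the other member far above the pool, had its highest value on Cx43 KO 4 and differed by 0.09 between genotypes (adjusted p = 0.952).

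**Figure D3:**
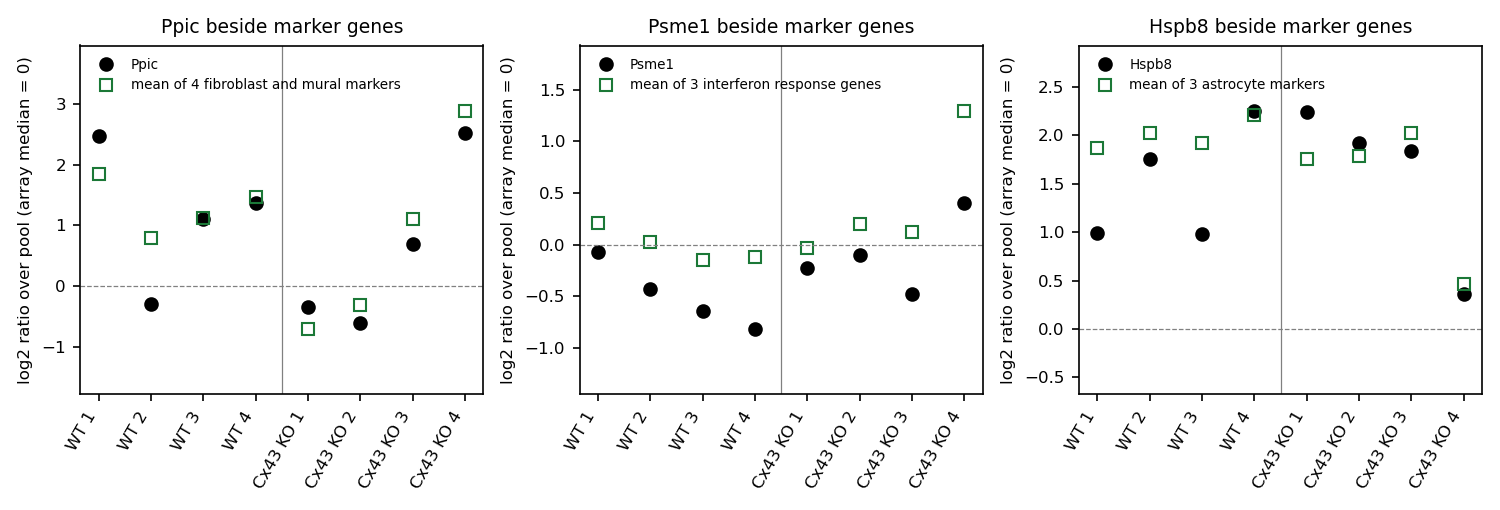
Centred log2 ratio by array for Ppic with the mean of 4 fibroblast and mural markers, Psme1 with the mean of 3 interferon-response genes, and Hspb8 with the mean of 3 astrocyte markers. On Cx43 KO 4, Ppic reaches 2.53 beside 2.89 for its markers, Psme1 reaches 0.41 beside 1.29, and Hspb8 is at 0.36 beside 0.46.

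The level of a compartment also varied from array to array within a genotype. Over the 11 proteasome genes with 8 values, the median was 0.34, -0.10, 0.26 and 0.02 in WT and 0.08, 0.04, 0.26 and 0.33 in Cx43 KO. Over the 21 chaperones and isomerases with 8 values it was 0.08, -0.26, -0.24 and -0.46 in WT and -0.35, -0.41, -0.31 and -0.11 in Cx43 KO. The genotypes overlapped in both. Over the 4 ER genes, which include Ppic, it was 1.30, -0.25, 0.48 and 0.70 in WT and -0.20, -0.57, 0.46 and 1.45 in Cx43 KO, again with the highest value on Cx43 KO 4. The median SD between arrays of 1 genotype was 0.24 in WT and 0.26 in Cx43 KO for proteasome genes and 0.32 and 0.28 for chaperones and isomerases, beside 0.27 and 0.30 for everything tested.

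In 3 members more than 1 feature had a ratio. The 2 features of Psma1 differed by 0.14 on average over 8 arrays, with gaps between -0.35 and 0.16. The 2 features of Ppig, a nuclear cyclophilin that binds splicing factors, disagreed: the first measured between -2.39 and -0.93 and the second between -0.31 and 0.93, with a gap of 1.22 to 2.87 on the 7 arrays that had both. The average of both was used, and on WT 2 it rested on the first feature alone. The difference between genotypes was 0.11 (adjusted p = 0.964) for the average and -0.50 for the more complete feature, so neither the level nor the direction of Ppig is settled. The first feature of Psma7 had a ratio on Cx43 KO 1 alone.

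**Figure D4:**
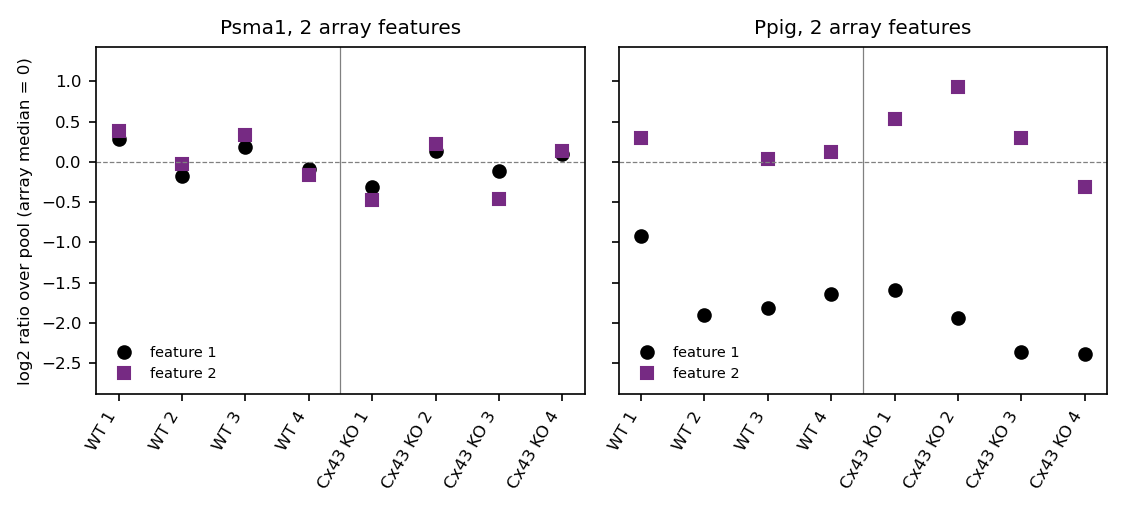
Centred log2 ratio by array for each of the 2 features of Psma1 and of Ppig. The features of Psma1 stay within 0.35 of each other on every array, and those of Ppig lie 1.22 to 2.87 apart.

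Genes that work with these machines were looked at from lists of co-chaperones and heat shock factors, ER folding and ER-associated degradation, regulators of the unfolded protein response, mitochondrial proteases, proteasome shuttles and other prolyl isomerases. Of 52 on the array 33 were tested. The mean was higher in Cx43 KO in 22 (66.7%, beside 52.6% of everything tested) and lower in 11. In each of the 33, limma's adjusted p stayed above 0.05. Before adjustment, 4 had a limma p under 0.05 (12.12%, beside 7.5% of everything tested in either direction). All 4 were higher in Cx43 KO, beside 3.85% of everything tested in that direction, and all had overlapping genotypes. Sel1l, the adaptor of the Hrd1 ubiquitin ligase in ER-associated degradation, measured 0.28, 0.55, 0.31 and 0.93 in WT and 0.87, 0.84, 1.88 and 1.78 in Cx43 KO, so that Cx43 KO was higher by 0.82 (SE 0.28, adjusted p = 0.655 in limma). Only WT 4 reached into the range of Cx43 KO.

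Ppp1r15a (Gadd34), which restores translation after stress by dephosphorylating eIF2 alpha, measured -0.09, -0.05, -0.52 and 0.51 in WT and 0.86, 0.66, 0.63 and 0.07 in Cx43 KO, a difference of 0.59 (SE 0.25, adjusted p = 0.655). Usp14, a deubiquitinase bound to the 19S particle, differed by 0.40 (SE 0.18, adjusted p = 0.658), and Pfdn5, a subunit of prefoldin, which hands nascent actin and tubulin to CCT, by 0.49 (SE 0.22, adjusted p = 0.666). In the lists without such a gene the smallest p belonged to the mitochondrial protease gene Yme1l1 (0.41, adjusted p = 0.696) and to the cyclophilin Ppil4 (0.13, adjusted p = 0.907).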

How the data were processed

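The authors' deposited values are signed log ratios of channel 2 (astrocytes, per the labels) over channel 1 (tissue pool), read here as log2 ratios; no source used here states the dyes, base, background correction, normalization or scanner. The direction follows the labels and the marker genes. Exact 0, 42.4% to 63.4% of features per array, was read as no ratio. Symbols came from the platform annotation (7307 of 9568 features with 1 symbol, 318 with several, not used, and 1943 unnamed); features of a gene were averaged within each array. Arrays, whose medians lay between 0.09 and 0.32, were centred on the median. Genes with at least 3 ratios per genotype were tested with limma 3.58.1 (lmFit and eBayes, R 4.3.3, two-sided, without a block), adjusted by Benjamini-Hochberg over all 3505, after the code was tested on simulated data. The level is the mean of both genotype means. All members have results; those named with values are 5 markers of the set, the 3 smallest p per subfamily, the 6 furthest above and below the pool, members with an unadjusted p under 0.05 or several features, and partner genes by p. The members and lists were chosen with earlier results of these data known. Per the labels, the lot batch equals the replicate number, so numbers pair arrays; same-numbered arrays deviated with r = -0.18, 0.19, -0.13 and -0.19 over 2596 genes. The alternatives, 20 in number, are given in the closing section.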

Additional observations from a re-analysis of the deposited data

Results flagged for a closer look

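Among 77 sets of 4 arrays examined (the WT or the Cx43 KO arrays of a named member or partner gene with a ratio on all 4), 2 held an array far from the others by Dixon's criterion; chance flags about 1 in 20 groups. Dnajc13, a J protein of early endosomes, measured 1.48 on Cx43 KO 4 and 0.57 to 0.70 on the other Cx43 KO arrays. Psmd1, a scaffold subunit of the 19S particle, measured 0.89 on Cx43 KO 2 and 0.41 to 0.49 on the other Cx43 KO arrays.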

How the results depend on the processing

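The count of members called between genotypes was 0 under all 20 alternatives, and the count over everything tested was 0 except when 1 array was left out, where it ran from 0 to 4 (4 without Cx43 KO 4, 1 without WT 2). With the lot batch as a block, which pairs same-numbered arrays, 0 genes were called and 196 had an unadjusted p under 0.05; the difference of Psmd1 became -0.0524, and no call of a member between genotypes changed. The block ended the calls of Psmd3 and Psme1 against the pool and added that of Ppic; no other call changed with it. Hspa9 stayed higher in Cx43 KO under every alternative, by 0.45 to 0.80, and Psmc5 lower, by -0.52 to -0.26. The unadjusted limma p of Hspa9 was not under 0.05 with scale normalization. Nor was it without Cx43 KO 1, 2 or 4, without WT 1 or 3, or without lot batch 1, 2 or 4. The number of members at an unadjusted p of 0.05 ran from 0 to 4 over the alternatives. Against the pool, the median of the members became 0.20 and 19 were called higher with exact 0 read as a ratio, and 0.21 and 18 without centring, which adds each array's median back; leaving out arrays gave 6 to 14 called higher (6 without lot batch 1).

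The following differences between genotypes changed sign, and the cause was not tested. With array weights they became 0.0305 for Bag2, -0.0187 for Dnaja3, -0.0220 for Dnajc1, -0.0169 for Ppif, -0.0167 for Psmg1, -0.0920 for Dnajc13, -0.0597 for Psmd14 and -0.10 for Hspb2. With quantile and with scale normalization they became -0.14 and -0.12 for Dnajc13, 0.0110 and 0.0782 for Fkbp4, -0.15 and -0.18 for Fkbp9, -0.12 and -0.11 for Hspb8, -0.0236 and -0.0254 for Psmd1, and -0.0264 and -0.0193 for Psmd14. With exact 0 read as a ratio Dnajb1 became -0.17 and Ppig -0.0830, and the most complete feature gave -0.50 for Ppig. Leaving out 1 array or 1 lot batch at a time gave both signs for Cct2 (-0.0102 to 0.27), Dnaja3 (-0.0969 to 0.16), Dnajc1 (-0.18 to 0.27), Dnajc13 (-0.19 to 0.21), Dnajc27 (-0.16 to 0.58), Fkbp2 (-0.0146 to 0.32), Fkbp9 (-0.0861 to 0.27), Hspb2 (-0.18 to 0.20), Hspb8 (-0.29 to 0.76), Ppic (-1.25 to 0.14), Ppig (-0.32 to 0.34), Ppil4 (-0.0332 to 0.26), Psmc4 (-0.21 to 0.18), Psmd1 (-0.0524 to 0.11), Psmd13 (-0.11 to 0.39), Psmd14 (-0.33 to 0.32), Psmd5 (-0.70 to 0.16) and Psmg1 (-0.13 to 0.15). Without a change of sign it moved by over 1.5 times the differences of Bag2 (-0.36 to -0.0423), Cct4 (-0.47 to -0.20), Cct5 (-0.59 to -0.0908), Dnajb6 (0.12 to 0.35), Fkbp4 (-0.36 to -0.12), Hspa14 (-0.43 to -0.21), Hspb11 (-0.41 to -0.0447), Ppia (-0.47 to -0.0781), Ppie (0.0697 to 0.31), Ppp1r15a (0.41 to 0.93), Psma1 (-0.34 to -0.00878), Psma4 (-0.16 to -0.00505), Psma7 (0.11 to 0.23), Psmc5 (-0.52 to -0.26), Psmd11 (0.21 to 0.47) and Psme1 (0.11 to 0.57).

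Levels near 0 changed sign against the pool. With exact 0 read as a ratio, and likewise without centring, Ppia was at 0.20 and Psma1 at 0.21. With quantile normalization these were at 0.00172 and 0.00438, with scale normalization Psma1 was at 0.00795, and with array weights Dnajc1 was at -0.0382. Leaving out 1 array or 1 lot batch gave both signs for Dnajc1 (-0.0347 to 0.23), Hspb11 (-0.0306 to 0.12), Ppia (-0.0853 to 0.0471) and Psma1 (-0.0490 to 0.0459).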
